A study of Mus musculus with 4 samples.

Results

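The inhibin, activin and follistatin genes were followed through the cells of the testis of mice at postnatal day 8, in a comparison of control and Cnot3-cKO animals by droplet single-cell RNA sequencing. The group was chosen by gene symbol and holds 9 of the 30828 genes in the matrices: the subunit genes *Inha*, *Inhba* and *Inhbb*, the binding proteins *Fst* and *Fstl3*, the receptors *Acvr1b*, *Acvr2a* and *Acvr2b*, and the co-receptor *Tgfbr3*. All 9 had counts in both libraries. Control mice carried floxed *Cnot3* (Cnot3flox/flox; labelled wild-type), and Cnot3-cKO mice also carried Ddx4-creER, a Cre recombinase made from a germ cell gene and active after 4-hydroxytamoxifen (4OHT), so the somatic cells of the testis were not its target. 4OHT was given to both groups, daily from postnatal day 1 to 3 in the study's methods, while the labels give the last day as 1 or 2 for the control samples and 3 or 4 for the Cnot3-cKO samples. The labelled days rise by 1 from each sample to the next, so they may not record the doses given. The suspension had been sorted for CD9+/THY1+ cells, and each droplet barcode reports captured RNA molecules as unique molecular identifiers (UMIs).

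The labels list 2 samples per genotype, but each genotype has 1 matrix in which both are merged with no record of the sample of a barcode. Their titles differ in the prefixes NS and NOV, and the study sequenced its libraries on NextSeq and NovaSeq systems. Whether the 2 samples are 2 animals or 2 runs of 1 library is not stated. The comparison is therefore between 1 control and 1 Cnot3-cKO library, with no replicates and no test. The intervals in parentheses are exact 95% intervals that cover counting error only. After the filters stated in the study, 5615 control and 6034 Cnot3-cKO cells remained, with medians of 14183 and 13215 UMIs, and 7 barcodes occurred in both libraries. The cell call before these filters, from 3000 expected cells, was chosen here, and it left more cells in each library than the study kept. Clusters were formed without the genes described here or their pathway and were named from marker lists. They gave 1400 control and 1723 Cnot3-cKO Sertoli-like cells, 241 and 73 germ-like, 1176 and 1442 peritubular myoid-like, 2105 and 2108 stroma-like, 364 and 242 cycling interstitial-like, 33 and 37 endothelial-like and 50 and 61 macrophage-like cells. Most cells were therefore somatic in spite of the sort. No cluster was Leydig-like. Levels are given as counts per 1000000 UMIs of a class (CPM), with control first. *Cnot3*, the targeted gene, had 69.4 and 38.0 CPM where cells were germ-like, whereas Sertoli-like cells had 64.5 and 67.3. The libraries read the 3′ ends of mRNAs, which the deletion need not touch, so these levels may not check it. A wider set of cells, which admits mitochondrial shares up to 20% and sets no upper bound on depth, is used for germ cells beside the stated set, since it held 1334 control and 561 Cnot3-cKO germ-like cells.

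Inhibins and activins are paired chains of the transforming growth factor β superfamily. The inhibin α chain (*Inha*) joined to a βA (*Inhba*) or βB (*Inhbb*) chain gives inhibin, and paired β chains give activin. Activin binds the type II receptors ACVR2A and ACVR2B, which engage the type I receptor ACVR1B and signal through SMAD2 and SMAD3. Inhibin competes for the type II receptors with the help of betaglycan, the product of *Tgfbr3*, and follistatin (*Fst*) and follistatin-like 3 (*Fstl3*) bind activin and block it. In the testis, Sertoli cells are the known source of inhibin B, which restrains follicle-stimulating hormone from the pituitary.

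The first question was which cells carried each gene. *Inha* (ENSMUSG00000032968.4, chromosome 1, 75507077 to 75510366, plus strand, GRCm38, protein coding) was a Sertoli gene in both libraries. It stood at 733 CPM in control Sertoli-like cells (722 to 745) and at 819 in Cnot3-cKO (808 to 830). The next class was endothelial-like in control, at 71.6, and macrophage-like in Cnot3-cKO, at 45.01, which put Sertoli-like cells 10.2-fold and 18.2-fold above them. In control the 34 UMIs of endothelial-like cells came from 6 of 33 cells, 19 of them from 2 cells, and the 11 Sertoli markers together stood there at 1949 CPM, against 333 in Cnot3-cKO endothelial-like cells, where *Inha* had 3 UMIs. Whether captured Sertoli RNA gave these counts was not tested. All other classes lay between 6.62 and 30.8 CPM in either library.

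*Inhbb* (ENSMUSG00000037035.5, chromosome 1, 119415465 to 119422248, minus strand), the chain of inhibin B and activin B, had its highest level in Sertoli-like cells too, at 203 in control (197 to 209) and 220.1 in Cnot3-cKO (214 to 226). Stroma-like cells came next in Cnot3-cKO at 26.7, and in control they stood at 27.7, below endothelial-like cells at 33.7 and macrophage-like cells at 28.5, whose intervals overlapped theirs. Myoid-like cells held 2.07 and 3.23. The fold over the next class was 6.02 in control and 8.23 in Cnot3-cKO. In control the 16 UMIs of endothelial-like cells came from 5 of 33 cells, 10 of them from 2 cells. Free RNA estimated from the Sertoli markers would give 32.7 of the 33.7 CPM there. It would give 13.2 of 28.5 in control macrophage-like cells and 2.02 of 27.7 in control stroma-like cells. The source of these counts was not tested.

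*Inhba* (ENSMUSG00000041324.14, chromosome 13, 16011851 to 16031621, plus strand), the chain of inhibin A and activin A, showed another pattern. Its level was 270.5 in control stroma-like cells (265 to 276) and 271 in Cnot3-cKO (265 to 278), 2.87-fold and 2.92-fold above cycling interstitial-like cells, at 94.2 and 93. Peritubular myoid-like cells held 15.4 and 12.9. Sertoli-like cells, with the α chain and the βB chain at their highest, held *Inhba* at 1.33 (0.884 to 1.92) and 2.11 (1.57 to 2.76). Each library thus had the βB chain mainly in Sertoli-like cells and the βA chain mainly in stroma-like cells.

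The promoters of the 3 subunit genes, 250 bases before to 50 after the RefSeq start, are shown because the genes divide by cell class, with *Inha* and *Inhbb* together in Sertoli-like cells and *Inhba* in stroma-like cells. They lie at chr1:75507359-75507658 on the plus strand for *Inha*, at chr1:119422199-119422498 on the minus strand for *Inhbb*, and at chr13:16011601-16011900 on the plus strand for *Inhba* (GRCm38.p6). The whole *Inha* window falls inside the GENCODE gene, which starts at 75507077, so by that annotation it holds no bases before the start. Capitals mark every match, on either strand, to the TATA box (TATAAA), the CCAAT box (CCAAT), the GC box (GGGCGG), the GATA motif (AGATAA), the nuclear receptor motif (AGGTCA) or the cAMP response element (TGACGTCA).
Inha: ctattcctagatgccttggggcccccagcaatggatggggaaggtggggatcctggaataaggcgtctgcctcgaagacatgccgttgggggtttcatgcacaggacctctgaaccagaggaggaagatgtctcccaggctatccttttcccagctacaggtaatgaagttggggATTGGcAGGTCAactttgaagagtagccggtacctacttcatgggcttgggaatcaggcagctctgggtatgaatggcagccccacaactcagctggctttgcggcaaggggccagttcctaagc
Inhbb: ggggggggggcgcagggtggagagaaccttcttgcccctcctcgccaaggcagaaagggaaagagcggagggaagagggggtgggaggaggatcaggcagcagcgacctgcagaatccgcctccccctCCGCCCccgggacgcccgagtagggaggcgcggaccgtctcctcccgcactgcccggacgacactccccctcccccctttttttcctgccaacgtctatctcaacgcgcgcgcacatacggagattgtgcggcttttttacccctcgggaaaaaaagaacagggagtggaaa
Inhba: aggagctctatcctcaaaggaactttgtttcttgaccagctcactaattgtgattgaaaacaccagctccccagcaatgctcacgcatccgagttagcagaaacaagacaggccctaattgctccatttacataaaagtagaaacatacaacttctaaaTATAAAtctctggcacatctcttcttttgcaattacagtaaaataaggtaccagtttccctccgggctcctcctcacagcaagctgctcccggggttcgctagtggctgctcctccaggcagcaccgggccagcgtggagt

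The 3 windows shared none of the 6 motifs. *Inha* held the CCAAT box, which 37.4% of the 32851 promoters of this length hold, and the nuclear receptor motif, which 16.3% hold. *Inhbb* held the GC box, present in 35.7% of promoters, and *Inhba* the TATA box, present in 13.6%. The GATA motif (11.2% of promoters) and the cAMP response element (1.79%) matched none of the 7 member promoters in the RefSeq table. The GC content was 55.3% for *Inha*, 64.3% for *Inhbb* and 47.7% for *Inhba*, against a median of 52.7% over all promoters. A GC box also stood in the windows of *Fstl3*, *Acvr1b*, *Acvr2a* and *Acvr2b*, where the GC content ran from 70.7% to 80.3%. These are matches of letters in 1 window and not sites.

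Of the binding proteins, *Fst* (ENSMUSG00000021765.8, chromosome 13, 114452290 to 114458951, minus strand) was highest in germ-like cells, at 45.3 in control (40.5 to 50.5) and 51.1 in Cnot3-cKO (40.4 to 63.7). The next class, cycling interstitial-like, held 5.98 and 9.32, and Sertoli-like cells held 5.75 and 8.55. *Fst* had 0 UMIs in Cnot3-cKO endothelial-like and in control macrophage-like cells, of 453292 and 912941 UMIs. *Fstl3* (ENSMUSG00000020325.10, chromosome 10, 79777272 to 79782630, plus strand) was highest in Sertoli-like cells, at 31.9 (29.5 to 34.4) and 29.6 (27.5 to 31.8), with myoid-like cells next at 11.9 and 11.2 and germ-like cells at 2.26 and 1.96. The pair of activin-binding proteins was therefore highest in different cells of the tubule.

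Among the receptors, *Acvr2b* (ENSMUSG00000061393.14, chromosome 9, 119402118 to 119434995, plus strand) had its highest level in germ-like cells, at 86.1 in control (79.4 to 93.2) and 59.6 in Cnot3-cKO (48.0 to 73.1), 5.04-fold and 3.39-fold above Sertoli-like cells at 17.1 and 17.6. *Acvr2a* (ENSMUSG00000052155.5, chromosome 2, 48814109 to 48903269, plus strand), the other type II receptor, was nearly even. Sertoli-like cells were first at 12.03 and 12.4, and the other classes lay between 2.21 and 8.29, with overlapping intervals between most neighbours in the order. The type I receptor *Acvr1b* (ENSMUSG00000000532.11, chromosome 15, 101174067 to 101213684, plus strand) stood at 11.6 and 16.3 in Sertoli-like cells. In control, endothelial-like cells were nominally above them at 12.6, on 6 UMIs and with an overlapping interval, and the germ, myoid, stroma and cycling classes of either library lay between 3.25 and 5.64.

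*Tgfbr3* (ENSMUSG00000029287.14, chromosome 5, 107106570 to 107289629, minus strand), whose product presents inhibin to the type II receptors, was an interstitial gene. It stood at 110.4 and 108 in stroma-like cells, 79.9 and 83.1 in myoid-like cells, 75.4 and 71.8 in cycling interstitial-like cells and 46.3 and 57.4 in endothelial-like cells. The myoid and cycling intervals overlapped, as did the cycling and endothelial ones. Sertoli-like cells held 0.428 (0.196 to 0.812) and 0.851 (0.527 to 1.30).

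**Figure D1:**
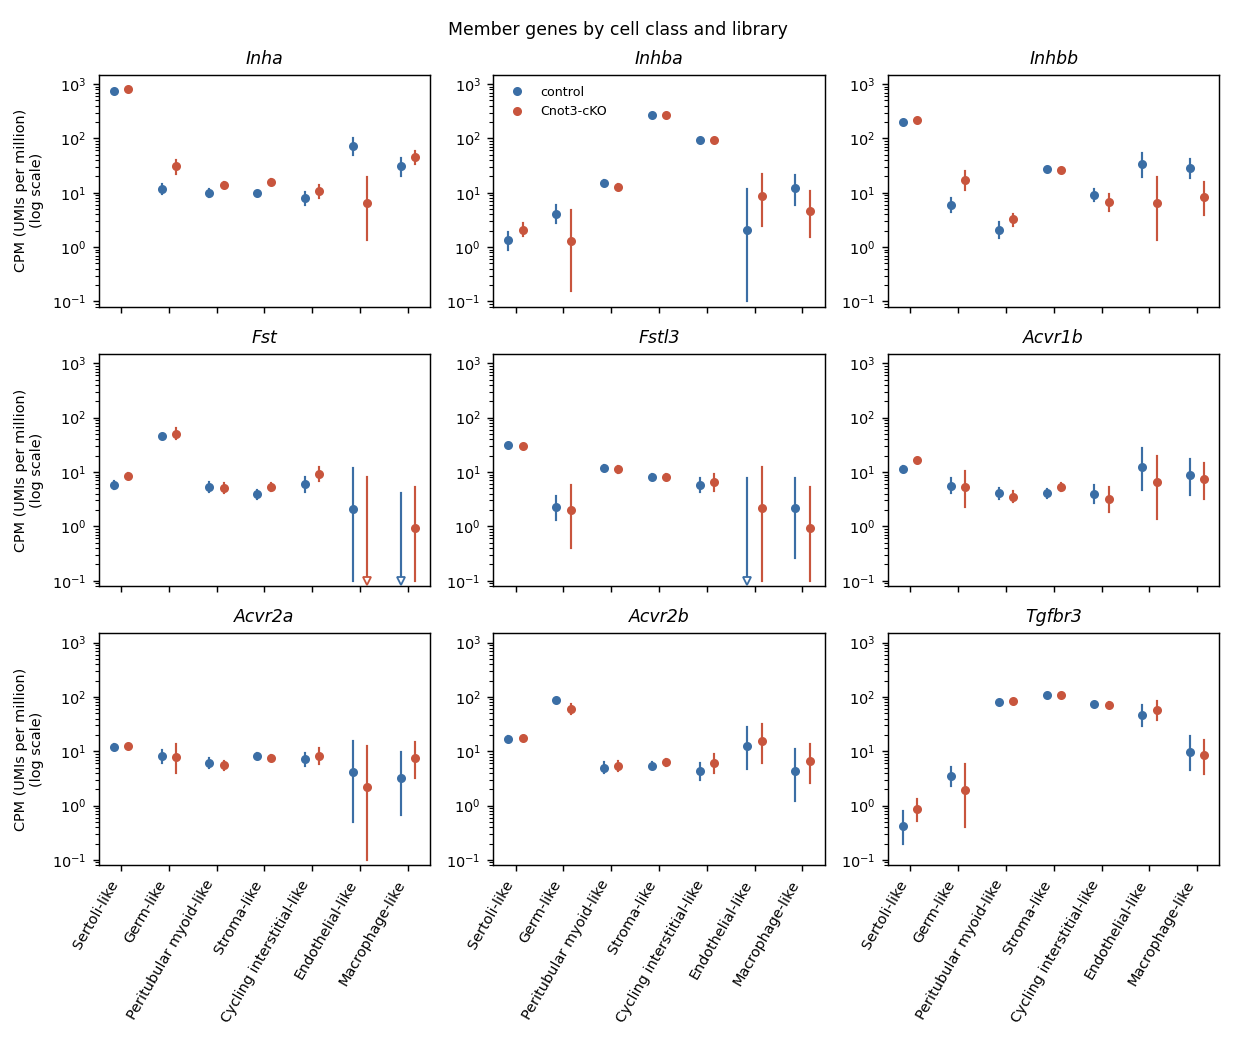
CPM (log scale) of each of the 9 genes in the 7 cell classes, blue for control and red for Cnot3-cKO, with exact 95% Poisson intervals as bars and open triangles at the foot for classes with 0 UMIs. *Inha*, *Inhbb* and *Fstl3* are highest in Sertoli-like cells, *Inhba* and *Tgfbr3* in stroma-like cells and *Fst* and *Acvr2b* in germ-like cells of both libraries.

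All 9 genes had at least 500 UMIs over the named classes. A level at least 2-fold above every other class in both libraries was met in Sertoli-like cells by *Inha*, *Inhbb* and *Fstl3*, in germ-like cells by *Fst* and *Acvr2b*, and in stroma-like cells by *Inhba*. Of the 11617 genes with as many UMIs, 4.16% met it in Sertoli-like, 6.67% in germ-like and 1.05% in stroma-like cells. The genes most alike in pattern were found by Pearson correlation of log2(CPM + 1) over 14 profiles, 7 classes in each of 2 libraries, which share depth and free RNA within a library. For *Inha* they were *Slc25a18*, *Map3k21* and *Shbg* (r of 0.989, 0.988 and 0.986), and for *Inhba* they were *Pgr*, *Lum* and *Cd248* (0.976, 0.968 and 0.967). *Inhbb* was nearest to *Polr1d*, *Sh2d4a* and *Mapk13* (0.949, 0.948 and 0.946). *Fst* was nearest to *Spats2*, *Ifrd2* and *Rnf170* (0.982, 0.964 and 0.961) and *Acvr2b* to *Ndufb9*, *Snapc1* and *Plekha8* (0.980, 0.977 and 0.976). For *Tgfbr3* the nearest were *Hoxd9*, *Thbd* and *Fstl1*, at 0.990, 0.986 and 0.984. *Fstl3* was nearest to *Gprasp2*, *Mfap3l* and *Ift57* (0.943, 0.939 and 0.931) and *Acvr1b* to *Slc52a3*, *Hivep1* and *Maf1* (0.9495, 0.948 and 0.943), and *Acvr2a* had *Fubp3* and *Cbwd1* among its nearest (0.905 and 0.898). Between members, r was 0.863 for *Inha* with *Inhbb*, 0.763 for *Inhba* with *Tgfbr3*, 0.651 for *Fst* with *Acvr2b*, and -0.752 for *Inha* with *Tgfbr3*.

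The share of cells with a UMI was then compared after each cell had been thinned to 8000 UMIs. *Inha* was seen in 98.5% of 1400 control Sertoli-like cells (97.7 to 99.1) and 99.4% of 1712 in Cnot3-cKO (98.9 to 99.7), against 7.14% and 10.8% of stroma-like cells. *Inhbb* was seen in 77.1% and 79.03% of Sertoli-like cells. Nearly every Sertoli-like cell therefore carried the α chain with or without the βB chain: *Inha* was seen in 98.1% of the 321 control cells without an *Inhbb* UMI and 98.6% of the 1079 with one. *Inhba* was seen in 75.3% and 75.8% of stroma-like cells, against 1.21% and 1.69% of Sertoli-like cells, and *Tgfbr3* in 57.5% and 55.3%, against 0.429% and 0.876%. Unthinned, at median depths of 13827 and 13292 UMIs in Sertoli-like cells, the shares were 99.86% and 99.88% for *Inha* and 89.9% and 91.3% for *Inhbb*. At 13109 and 12410 UMIs in stroma-like cells they were 85.6% and 86.1% for *Inhba* and 76.0% and 71.3% for *Tgfbr3*. The thinning left out 0 and 11 Sertoli-like and 3 and 35 stroma-like cells.

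Within the classes some genes were uneven. Sertoli-like cells formed cluster 9 (799 control and 1068 Cnot3-cKO cells, led by *Hsd17b1*, *Cst9* and *Rhox8*), cluster 10 (346 and 378 cells, led by *Cidea*, *Fabp3* and *Edn1*) and cluster 1 (255 and 277 cells, led by cell-cycle genes such as *Top2a* and *Cdk1*). *Fstl3* stood at 9.77 and 6.03 CPM in cluster 9, at 35.1 and 35.8 in cluster 1 and at 78.4 and 91.5 in cluster 10. Its level in cluster 10 was 8.02-fold that in cluster 9 in control and 15.2-fold in Cnot3-cKO. *Inhbb* went the other way, at 225 and 242 in cluster 9 and 153 and 177 in cluster 10, folds of 1.47 and 1.37. In single thinned cells *Inhbb* was seen in 67.2% of the control Sertoli-like cells with *Fstl3* (60.9 to 73.1) and 79.1% of those without it (76.7 to 81.4), and the Cnot3-cKO library gave 68.8% and 81.05%. *Inha* differed less between these clusters, at 793 and 883 in cluster 9, 692 and 776 in cluster 10, and 639 and 676 in the cycling cluster 1.

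*Inhba* was uneven among stroma-like cells. It stood at 390.2 and 399.7 in cluster 5 (944 and 791 cells, led by *Clec3b*, *Mfap5* and *Dpt*), at 318 and 326 in cluster 6 (413 and 546 cells, led by *Vcam1* and *Kcnk3*) and at 129 and 139.7 in cluster 7 (748 and 771 cells, led by *Foxl2*, *Cyp26b1* and *Oxtr*). Cluster 5 was thus 3.02-fold and 2.86-fold above cluster 7. *Tgfbr3* was highest in cluster 6 in both libraries, at 126 and 124, against 101 and 98.6 in cluster 5. Among thinned stroma-like cells *Inhba* had a variance 2.63 times its mean in control and 2.72 times in Cnot3-cKO, where counts of evenly expressed molecules would give a ratio near 1, while *Tgfbr3* had 1.11 and 1.19. *Inhba* was seen in 74.03% of the control stroma-like cells with a *Tgfbr3* UMI and 76.9% of those without one, with overlapping intervals.

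**Figure D2:**
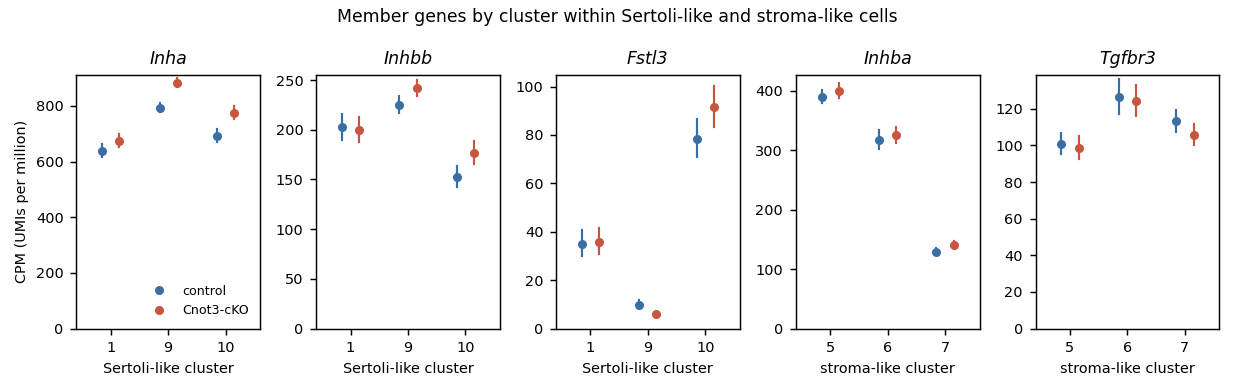
CPM of 5 genes in the 3 Sertoli-like clusters (left 3 panels) and the 3 stroma-like clusters (right 2 panels), blue for control and red for Cnot3-cKO, with exact 95% Poisson intervals. *Fstl3* is lowest in cluster 9 and highest in cluster 10 while *Inhbb* is higher in cluster 9 than in cluster 10, and *Inhba* is lowest in cluster 7, in both libraries.

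The next question was whether the level of each gene differed between the libraries within a class, among genes with at least 100 UMIs over both. In Sertoli-like cells 7 of the 9 genes had as many, and 0 of them differed by 1.5-fold or more, where 1.79% of 11068 genes did. Taken as Cnot3-cKO over control, the log2 ratio was 0.16 for *Inha* (0.13 to 0.19) and 0.12 for *Inhbb* (0.06 to 0.18), and the median over all genes was 0.04. The ratio was -0.11 for *Fstl3* (-0.26 to 0.04), 0.04 for *Acvr2a* and 0.04 for *Acvr2b*. The furthest from 0 were *Fst* at 0.57 (0.24 to 0.91) and *Acvr1b* at 0.50 (0.27 to 0.74), both above the 95th percentile of all genes, 0.34. *Acvr1b* was higher in Cnot3-cKO in each Sertoli-like cluster, at 10.2 and 16.7 in cluster 1, 12.5 and 16.2 in cluster 9, and 10.6 and 16.4 in cluster 10. *Fst* was too, at 6.53 and 10.7, 5.11 and 7.33, and 6.43 and 9.90. In the wider set, with 2885 and 4361 Sertoli-like cells, *Acvr1b* gave 0.56 and *Fst* 0.29. *Inhba* and *Tgfbr3* had fewer than 100 UMIs in Sertoli-like cells of the stated set, so their ratios were not read there. *Inhba* had enough in the wider set, at 1.16 CPM (48 UMIs) and 1.95 (117 UMIs). Its ratio of 0.75 (0.26 to 1.27) was past 1.5-fold. Estimated free RNA would give 0.83 and 0.81 of these CPM by itself. *Tgfbr3* had too few UMIs in the wider set too.

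In stroma-like cells all 9 genes had at least 100 UMIs, and 1 of them, *Inha*, differed by 1.5-fold, against 1.51% of 11758 genes. *Inhba* had a ratio of 0.00 (-0.04 to 0.05), *Tgfbr3* -0.03 (-0.11 to 0.04) and *Inhbb* -0.05 (-0.20 to 0.09), so the genes with most UMIs there were level between the libraries to within about their counting error. *Fst* gave 0.44 (0.08 to 0.81) and *Acvr1b* 0.39 (0.03 to 0.75). *Inha* was at 9.77 and 16.1 CPM, which gave a ratio of 0.72 (0.50 to 0.94). In myoid-like cells 8 of the 9 genes had as many UMIs and 0 passed 1.5-fold, against 1.93% of 10872 genes. *Inha* gave 0.49 there (0.20 to 0.77), at 9.88 and 13.8, *Inhba* -0.25 (-0.51 to 0.00) and *Tgfbr3* 0.06 (-0.05 to 0.16).

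**Figure D3:**
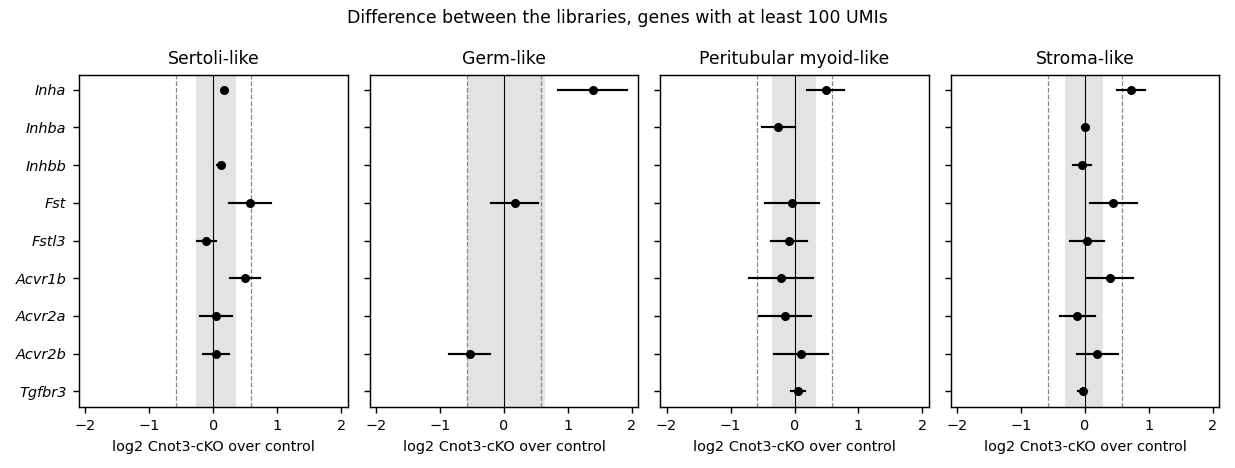
Log2 ratio of Cnot3-cKO over control for the genes with at least 100 UMIs in 4 classes, with exact 95% intervals as bars. The grey band spans the 5th to 95th percentile of all genes with at least 100 UMIs in the class and dashed lines mark 1.5-fold. *Inha* lies outside the dashed lines in germ-like and stroma-like cells, and the other genes lie inside them.

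The level of *Inha* outside Sertoli-like cells was set beside that of Sertoli RNA. The 11 Sertoli markers together stood in stroma-like cells at 120 and 162 CPM, with 10 of 11 higher in Cnot3-cKO, in myoid-like cells at 103 and 139 (10 of 11 higher), and in germ-like cells at 141 and 382 (10 of 11 higher). In these 3 classes *Inha* was higher in Cnot3-cKO too. In macrophage-like cells it was at 30.7 and 45.01 while the markers stood at 788 and 455, with 2 of 11 higher, and 33 of the 48 Cnot3-cKO UMIs of *Inha* there came from 2 cells. Empty barcodes, which hold free RNA, had *Inha* at 196 and 347. In stroma-like cells free RNA estimated from the Sertoli markers would give *Inha* 7.56 of its 9.77 CPM in control. In Cnot3-cKO it would give 11.4 of 16.1. With free RNA subtracted the ratio of *Inha* there went from 0.72 to 1.08, a ratio of the small parts left. The part of captured Sertoli RNA in these differences was not tested. Per 1000 Sertoli marker UMIs, *Inha* had 65.7 in control Sertoli-like cells and 72.6 in Cnot3-cKO, 62.7 and 70.2 in empty barcodes, 83.1 and 80.6 in germ-like cells, 81.1 and 99.3 in stroma-like cells and 96.3 and 99.3 in myoid-like cells. *Inhbb* behaved otherwise in stroma-like cells. It had 18.2 and 19.5 per 1000 marker UMIs in Sertoli-like cells and 16.8 and 19.99 in empty barcodes, but 230 (214 to 246) and 165 (153 to 177) in stroma-like cells. In thinned cells it was seen in 18.5% and 16.8% of stroma-like cells, against 1.62% and 2.30% of myoid-like cells. Myoid-like cells had 20.2 (14.1 to 28.1) and 23.2 (17.8 to 29.6) per 1000 marker UMIs. The source of the *Inhbb* UMIs in these classes was not tested. In germ-like cells *Inhbb* had 43.04 (31.2 to 58.0) and 44.6 (29.1 to 65.3).

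**Figure D4:**
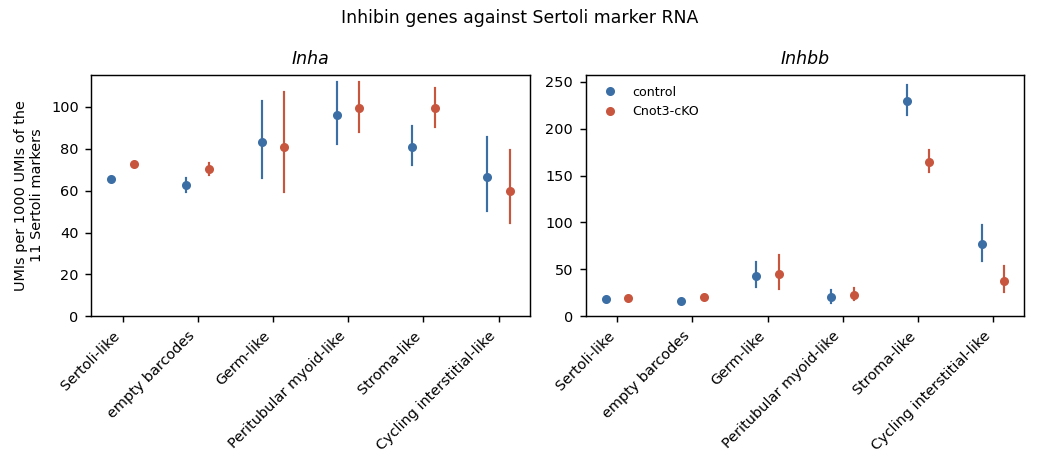
UMIs of *Inha* (left) and *Inhbb* (right) per 1000 UMIs of the 11 Sertoli markers in 5 cell classes and in empty barcodes, blue for control and red for Cnot3-cKO, with exact 95% intervals. *Inha* lies between 60.05 and 99.3 throughout, whereas *Inhbb* reaches 230 and 165 in stroma-like cells, against 18.2 and 19.5 in Sertoli-like cells.

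Germ-like cells in the stated set had at least 100 UMIs for 3 of the 9 genes, and 1 differed by 1.5-fold, against 10.4% of 8047 genes. That gene was *Inha*, at 11.7 and 30.8 CPM, a ratio of 1.39 (0.85 to 1.93). Free RNA estimated from the Sertoli markers would give 8.84 and 26.8 by itself, and with it subtracted the ratio was 0.52. *Acvr2b* gave -0.53 (-0.87 to -0.21) and *Fst* 0.17 (-0.20 to 0.53). The free RNA share would give *Acvr2b* 1.08 and 1.12 and *Fst* 0.450 and 0.968, small parts of their levels. The libraries differed in depth here, for which CPM is already scaled. In a single random draw that thinned each cell to 8000 UMIs, both genes passed 1.5-fold. *Acvr2b* then had means of 0.730 and 0.403 UMIs per cell, a log2 ratio of -0.86. *Fst* had 0.307 and 0.514, a log2 ratio of 0.74. These thinned ratios rest on that draw and on fewer UMIs than the CPM, and they carry no interval. Levels were also taken in each cell per 1000000 UMIs, without thinning, and averaged over cells. Both ratios then stayed inside the intervals given above, so *Fst* did not pass 1.5-fold by that measure. In thinned cells *Acvr2b* was seen in 51.9% of 241 control germ-like cells (45.4 to 58.3) and 31.9% of 72 Cnot3-cKO cells (21.4 to 44.0), against 13.9% and 13.6% of Sertoli-like cells. *Fst* was seen in 17.4% (12.9 to 22.8) and 29.2% (19.05 to 41.1), against 4.57% and 6.02%. Unthinned, at median depths of 31950 and 20265 UMIs, the shares were 86.3% and 64.4% for *Acvr2b* and 36.9% and 42.5% for *Fst*.

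The wider set, with 56723761 and 25964836 germ UMIs, gave both genes more counts. Control held *Acvr2b* at 82.6 CPM (4688 UMIs) and Cnot3-cKO at 45.9 (1193 UMIs), for a ratio of -0.85 (-0.94 to -0.75). *Fst* stood at 29.3 (1663 UMIs) and 53.7 (1394), a ratio of 0.87 (0.77 to 0.98). Both ratios were past 1.5-fold here and not in the stated set, except in the random draw that thinned its cells. *Inhbb* passed here too, at 6.42 and 9.98 CPM, a ratio of 0.64 (0.40 to 0.87). Free RNA estimated from the Sertoli markers would give it 4.72 and 7.17 by itself. Of all genes with at least 100 UMIs in these cells, 9.88% passed 1.5-fold. Thinned shares were 49.5% of 1334 cells and 28.6% of 560 for *Acvr2b*, and 16.9% and 25.5% for *Fst*. At 42276 and 46104 UMIs per cell the unthinned shares were 92.7% and 81.996% for *Acvr2b* and 44.5% and 57.6% for *Fst*. *Inha* had a ratio of 0.47 in this set.

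These germ values joined cells of several kinds, in different proportions in the 2 libraries. *Fst* was highest among cells with stem cell markers, though not evenly among them. SSC-like (spermatogonial stem cell-like) cluster 8 of the wider set, led by *Lhx1*, *Tcl1* and *Foxc2*, held *Fst* at 143 (132 to 155) in 108 control cells and 179 (144 to 221) in 15 Cnot3-cKO cells. The Progenitor-like cluster 2 held 26.7 in 253 cells and 48.5 in 14, and the Differentiating-like cluster 1 held 6.502 in 296 cells and 6.61 in 57. Cluster 3, with SSC markers but left unnamed since 278 of its 280 cells came from Cnot3-cKO, held *Fst* at 76.1 in those cells, which were 278 of the 561 Cnot3-cKO germ-like cells. In the stated set, SSC-like cluster 3 held 197 in 30 control and 143 in 13 Cnot3-cKO cells, with overlapping intervals. Cluster 1 of that set, also SSC-like and larger, held 50.5 in 39 control and 58.1 in 23 Cnot3-cKO cells. Those levels were near the 45.3 and 51.1 of all its germ-like cells. Among thinned cells of the wider set, *Fst* was seen in 42.2% of the 185 control cells with *Gfra1* or *Lhx1* (34.95 to 49.6) and 12.9% of the 1149 without (10.997 to 14.96), and in 44.3% of 158 and 18.2% of 402 Cnot3-cKO cells. Over the 8 clusters with at least 5 cells of each library, the *Fst* ratio ran from -0.61 to 1.36, with the interval above 0 in 3 and below 0 in 0. The highest, in cluster 7, and 1 other of these 3 were in clusters led by Sertoli and stromal genes.

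*Acvr2b* had another course over the germ clusters. In control it was lowest in the SSC-like cluster 8, at 58.0 (51.0 to 65.7), stood at 91.9 in the Progenitor-like cluster 2 and at 104.8 (99.3 to 111) in the Differentiating-like cluster 1. In Cnot3-cKO it was 40.7 (24.9 to 62.9), 61.8 and 66.1 in the same clusters, and 38.0 in cluster 3. It was lower in Cnot3-cKO than in control in 7 of the 8 clusters, with the whole interval below 0 in 5. The ratios ran from -0.99 to 0.02. Clusters 5 (-0.99) and 7 (-0.65), led by stromal and Sertoli genes, were among those with the interval below 0. In the SSC-like cluster 8 the ratio was -0.51 (-1.25 to 0.15). In the Differentiating-like cluster the ratio was -0.66 (-0.90 to -0.43). The stated set had few UMIs per cluster, and there 5 of 6 clusters were lower in Cnot3-cKO while the Differentiating-like cluster 5, with 6 Cnot3-cKO cells, was higher, with a ratio of 0.84 (0.02 to 1.58).

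**Figure D5:**
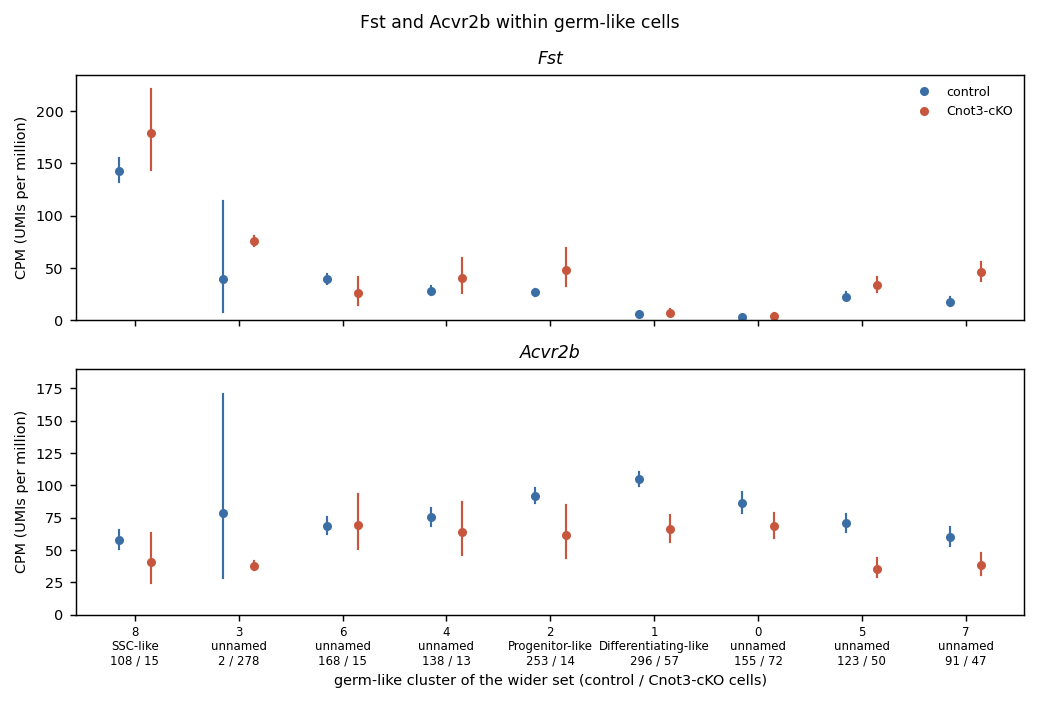
CPM of *Fst* (top) and *Acvr2b* (bottom) in germ-like clusters (wider set), ordered from SSC-like to clusters led by somatic genes (5 and 7), with cells per library under each, blue for control and red for Cnot3-cKO, and exact 95% Poisson intervals. *Fst* is highest in cluster 8, at 143 and 179, and *Acvr2b* is lower in Cnot3-cKO in 7 of the 8 clusters with at least 5 cells per library.

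The wider pathway was read from a list of 78 other genes of the superfamily. Of its 58 ligands, receptors and binding proteins, 13 reached 100 CPM in any class. *Amhr2*, the receptor of anti-Müllerian hormone, was a Sertoli gene at 393 and 363, and *Bambi*, a decoy receptor, stood there at 110.2 and 111 and in endothelial-like cells at 122 and 128. *Fstl1*, a secreted relative of follistatin, stood at 529 and 488 in myoid-like cells and 479 and 422 in stroma-like cells but at 6.80 and 7.90 in Sertoli-like cells. *Ltbp4*, which binds latent TGF-β, was highest in stroma-like cells at 436 and 443, and *Nbl1*, an antagonist of bone morphogenetic proteins, stood there at 154 and 143. *Bmpr1a* was highest in myoid-like cells, at 105 and 103. Endothelial-like cells had the highest levels of *Eng* (608 and 677), *Bmpr2* (128 and 161), *Htra1* (362 and 481), *Tgfbr2* in control (126) and *Tgfb2* (139 and 88.2), and *Ltbp3* in Cnot3-cKO reached 104 there. *Tgfb1* was highest in macrophage-like cells, at 227 and 263.

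Between the libraries, 39 of the 78 genes had at least 100 UMIs in Sertoli-like cells, and 1 was higher and 1 lower in Cnot3-cKO by 1.5-fold or more, against 1.79% of all genes in either direction. The type I receptor *Acvrl1* stood at 26.2 and 44.2, a log2 ratio of 0.75 (0.60 to 0.90), and *Tgfb2* at 3.61 and 2.11 (-0.78). In the wider set 2 of 43 were higher, *Acvrl1* and *Lefty1*, and 0 lower, so *Tgfb2* no longer passed. In germ-like cells 2 of 21 were higher, *Tgfb1* at 22.0 and 36.7 (0.74) and *Tgif1*, a repressor of SMAD targets, at 12.3 and 19.0 (0.63; -0.03 to 1.25), a share of 9.52% against the 10.4% of all genes. In the wider set 5 of 48 were higher, with *Tgfb1* and without *Tgif1*, and 6 lower, against 9.88% of all genes. In myoid-like cells 4 of 49 were higher and 0 lower, where 1.93% of all genes passed. They included *Id3* at 293 and 527 (0.85; 0.80 to 0.90) and *Id2* at 51.8 and 95.8 (0.89), both targets of bone morphogenetic protein signals, and *Bmp2* (0.88). In stroma-like cells 3 of 54 were higher and 0 lower, among them *Bmper* (0.90) and *Nog* (0.60), where 1.51% of all genes passed. The 33 and 37 endothelial-like cells had 14 of the genes, of which *Id2* (1.13), *Ltbp4* (0.84), *Fstl1* (0.69), *Id3* (0.67) and *Tgfb1* (0.60) were higher and *Tgfb2* (-0.65) lower, where 8.27% of 1560 genes passed 1.5-fold. In these cells the Sertoli markers stood at 1949 and 333 CPM (0 of 11 higher), the free RNA share estimated from them was 62.3% and 6.74%, and the 8 stroma markers stood at 973 and 1747 (7 of 8 higher), and their part in these ratios was not tested. In the wider set 7 of 15 genes were higher and 0 lower, and neither *Tgfb1* nor *Tgfb2* passed. The median ratio of the list was 0.04 in Sertoli-like cells, as it was over all genes there, -0.15 in germ-like, 0.06 in myoid-like and 0.01 in stroma-like cells, against 0.03, -0.01 and -0.02 over all genes, and 0.37 in endothelial-like cells against -0.02.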

How the data were processed

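The deposited matrices hold raw UMI counts of each gene in each barcode, from 10x 3′ libraries that the authors processed with Cell Ranger 3.0.1 on mm10 (per the labels). No source used here gives the aligner settings. Both samples of a genotype share 1 matrix, so groups are the 2 genotypes. The 9 genes, the lists and the comparisons were chosen with earlier results of these data known.

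Cells were called from 3000 expected cells (at least 7977 and 7664 UMIs), and cells over 10% mitochondrial UMIs or beyond 2 SD in UMIs or genes were left out. Scrublet marked 5.83% and 4.92% of called cells, which stayed in. Cells of both libraries were clustered with scanpy 1.11.5 (2500 variable genes, 30 components, 15 neighbours, Leiden resolution 0.5) without 87 member and pathway genes. A cluster was named where at least 3 markers of 1 list were raised 2-fold in at least 10% of its cells, with at most 90% of cells from 1 library; this rule was settled after clusters were seen, and 4 clusters stayed unnamed. Summed UMIs of a class in a library were scaled to 1000000 (CPM). Levels carry exact Poisson intervals, exact conditional intervals for ratios and Clopper-Pearson intervals for shares. Ratios needed 10 UMIs, calls 100. Free RNA came from barcodes of at most 100 UMIs. All 9 genes were named in every class; pathway genes were named past 1.5-fold with at least 100 UMIs (at most 6 per class) or at 100 CPM in any class, and the 3 most correlated genes per member; some genes these rules chose are not reported here. On simulated counts from the Sertoli-like means (11068 genes), 95.4% of intervals held the true ratio and 100% of 50 genes made 2-fold higher passed 1.5-fold. From the germ-like means (8047 genes), 96.04% of intervals did and 92.3% of 39 such genes passed. The simulated counts held counting error only, so they checked the computation and cannot show how variation between cells or mice affects the ratios. Gene positions are from GENCODE M21 (GRCm38), matched by identifier, and promoters from RefSeq (GRCm38.p6), which had 7 of the 9 genes.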

Additional observations from a re-analysis of the deposited data

Results flagged for a closer look

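Cluster 15, led by *Ramp1*, *Tagln* and *Adam33*, was kept out of every class because 93 of its 100 cells came from Cnot3-cKO, so it may be that library and not a cell type. Its best-matching marker list was that of stroma, with 8 of 8 markers raised. It was set beside the Cnot3-cKO myoid-like and stroma-like cells because its signal lay outside the comparisons above. *Inhbb* stood there at 135 CPM (142 UMIs), against 3.23 in Cnot3-cKO myoid-like cells, a log2 ratio of 5.38 (4.94 to 5.83), and against 26.7 in Cnot3-cKO stroma-like cells, a ratio of 2.33 (2.06 to 2.59). *Inha* stood at 36.0 (38 UMIs), a ratio of 1.38 (0.85 to 1.87), *Fst* at 18.0 (19 UMIs), a ratio of 1.81 (1.02 to 2.53), and *Acvr1b* at 13.3 (14 UMIs), a ratio of 1.91 (0.96 to 2.75). The causes of these differences were not tested. The 7 control cells of this cluster had 0 UMIs of *Inhbb*, 11 of *Inhba* and 23 of *Fst*.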

How the results depend on the processing

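No paired analysis was possible because the samples of a genotype are merged and no test was made. The highest class was the same for all 18 gene and library pairs with doublets left out or free RNA subtracted, and for 17 in the wider set, with classes from marker counts or with the mean over cells; the exception each time was *Acvr1b* in control, endothelial-like or Sertoli-like. Of the log2 ratios, *Inha* in germ-like cells moved to 0.47 in the wider set and 0.52 with free RNA subtracted, *Inha* in stroma-like cells to 1.08 with free RNA subtracted, *Inha* in Sertoli-like cells to 0.12 under median ratio scaling, *Fst* in germ-like cells to 0.87 in the wider set and 0.74 in thinned cells, *Inhba* in stroma-like cells to -0.10 with classes from marker counts, *Inha* in cycling interstitial-like cells from 0.43 to 1.21 in the wider set, and *Tgfbr3* in the latter cells from -0.07 to 0.19 when thinned. *Acvr2b* in germ-like cells passed 1.5-fold in the wider set and, at -0.86, in thinned cells. The thinned values came from a single random draw. No ratio past 1.5-fold changed sign. The germ clusters led by somatic genes were left out in an alternative chosen after seeing the data, which gave -0.59 for *Acvr2b*, 0.14 for *Fst* and 1.205 for *Inha*. In the wider set 19 of 126 levels left their interval. They included *Inha* in Sertoli-like cells, at 707 and 795, in control germ-like cells, at 19.9, and in Cnot3-cKO macrophage-like cells, at 75.7, *Fst* in control germ-like cells, at 29.3, and in Sertoli-like cells, at 8.64 and 10.6, *Acvr2b* in Cnot3-cKO germ-like cells, at 45.9, and *Inhba* in cycling interstitial-like cells, at 106 and 110.2. With free RNA subtracted *Inhba* in stroma-like cells stood at 279.6 and 279. Without thinning, shares with a UMI were 99.86% and 99.88% for *Inha*, 89.9% and 91.3% for *Inhbb* and 23.7% and 20.95% for *Fstl3* in Sertoli-like cells, 85.6% and 86.1% for *Inhba* and 76.0% and 71.3% for *Tgfbr3* in stroma-like cells, and 36.9% and 42.5% for *Fst* and 86.3% and 64.4% for *Acvr2b* in germ-like cells. At a minimum of 30 UMIs, 4 of 45 pathway genes passed 1.5-fold in Sertoli-like cells (8.89%, against 4.52% of all genes). In germ-like cells 6 of 34 did (17.6%, against 17.8%), and in endothelial-like cells 12 of 28 (42.9%, against 19.1%). At 100 UMIs in the wider set 11 of 48 passed in germ-like cells, 5 higher and 6 lower (22.9%, against 9.88%). Classes from marker counts gave too few myoid-like cells for a value.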
